A study of Mus musculus with 15 samples.

Results

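Trem2-/- BV2 cells were compared with and without cholesterol loading. The comparison rests on 7 of the 15 RNA-seq libraries of the series, and they were chosen by their labels alone: 4 Trem2-/- foamy libraries against 3 that are Trem2-/- and non-foamy. BV2 is an immortalised mouse microglial line, and it served here as a macrophage model that can be edited and loaded with lipid. All 7 libraries come from BV2 cells that carry Cas9 and had received a guide against Trem2, and the edited cells were isolated by limiting dilution. Whether the RNA came from 1 clone is not stated, so a property of the clone and the loss of Trem2 cannot be told apart. Foamy cells were cultured overnight in soluble cholesterol (20 μg/ml) and non-foamy cells in plain media. Soluble cholesterol is cholesterol carried by a cyclodextrin, and no library received the carrier alone, so carrier and cholesterol cannot be told apart. The 8 WT libraries (4 foamy, 4 non-foamy, BV2 cells without the Trem2 deletion) were used to share the estimate of spread and to test where the Trem2-/- response differed from the WT response.

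Cells meet a cholesterol load in several ways. SREBP2, a transcription factor held in the endoplasmic reticulum when sterols are plentiful, drives the genes of cholesterol synthesis and uptake when sterols run short. LXR, a nuclear receptor for oxidised sterols, drives the genes of cholesterol export and of the ligase that removes lipoprotein receptors. Excess cholesterol and fatty acids are stored in lipid droplets, and PPAR receptors drive genes of fatty acid uptake and oxidation. In macrophages, a full response to free cholesterol pairs repression of synthesis with induction of export. Trem2 is a surface receptor for lipids and lipoproteins on microglia and foamy macrophages.

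The 7 libraries held 29353996 to 38281707 counted reads. Reads on mitochondrial genes made up 6.53% to 8.05% of a library, and reads on ribosomal protein genes made up 15.3% to 16.5%. The Trem2 transcript was still counted after the editing, at 232, 214 and 220 CPM (read counts scaled to a common library size with TMM factors) in non-foamy replicates 1 to 3. In foamy replicates 1 to 4 it was at 227, 227, 218 and 226 CPM. Raw Trem2 reads numbered 5941 to 8161 in the 7 Trem2-/- libraries and 9423 to 15214 in the 8 WT libraries. The transcript was thus lower than in WT but not lost, and by itself it does not show loss of the protein. Protein was not measured in these data, and the paper checked Trem2 loss in its edited line by flow cytometry. Macrophage markers were present, with 10 of them summing to 4670 to 5010 CPM, but 6 of 8 homeostatic microglia markers stayed under 1 CPM and Sall1, a defining microglial transcription factor, was at 0 in all 7 libraries. Neuron, astrocyte, fibroblast and lymphocyte markers each summed to less than 1 CPM, and all 6 fibroblast markers were at 0. Among 5 endothelial markers the sum was 3.75 to 4.42 CPM in foamy and 1.91 to 2.65 CPM in non-foamy libraries, with Cdh5 and Cldn5 at 0. Foamy replicate 4 stood apart on the first principal component of the 7 libraries (21.5% of variance, score 37.1, others −21.3 to 10.7), whereas the second (18% of variance) separated foamy scores of 8.57 to 15.1 from non-foamy scores of −32.8 to −6.73. The files hold no measure of cellular cholesterol, so the treatment labels were not tested. In bulk RNA, fewer cells with a transcript and less transcript per cell cannot be told apart.

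The response of Trem2-/- cells to cholesterol was small and mostly upward. Of 14237 tested genes, 20 were called (0.14%), with 15 higher (0.105%) and 5 lower (0.0351%) in foamy cells, and 19 of them are named here. The leading increases were in the chemokine gene Ccl9, in enzymes of cholesterol synthesis (Msmo1, Cyp51, Idi1, Fdft1, Fdps, Mvd) and in genes of fatty acid handling (Cpt1a, Plin2, Cd36). The decreases included the LXR targets Abca1 and Mylip. A gene was called at a Benjamini-Hochberg adjusted p under 0.05 in edgeR's quasi-likelihood test, and every p-value below comes from that test unless DESeq2 is named. For each of the 20 genes every foamy library lay on one side of every non-foamy library, and over all tested genes the foamy libraries lay entirely above for 5.38% and entirely below for 3.88%. The median absolute log2 fold change was 0.56 among called genes and 0.10 among all tested genes, and 1 called gene reached a log2 fold change of 1 in size. At an unadjusted p under 0.05, 575 genes were higher and 343 were lower, 918 in all, where evenly spread p-values would give 712. DESeq2 called 54 genes (0.379%), including all 20. Without foamy replicate 4 the count was 15, and 13 of the 19 named genes were still called. The count was 10 without non-foamy replicate 1, 11 without foamy replicate 3, 12 without non-foamy replicate 2 and 13 without foamy replicate 1. Of the 19 named genes, 9 were called under all alternatives tried: Ccl9, Msmo1, Cpt1a, Cyp51, Ndufa12-ps, Plin2, Idi1, Fdft1 and Cd36.

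**Figure D1:**
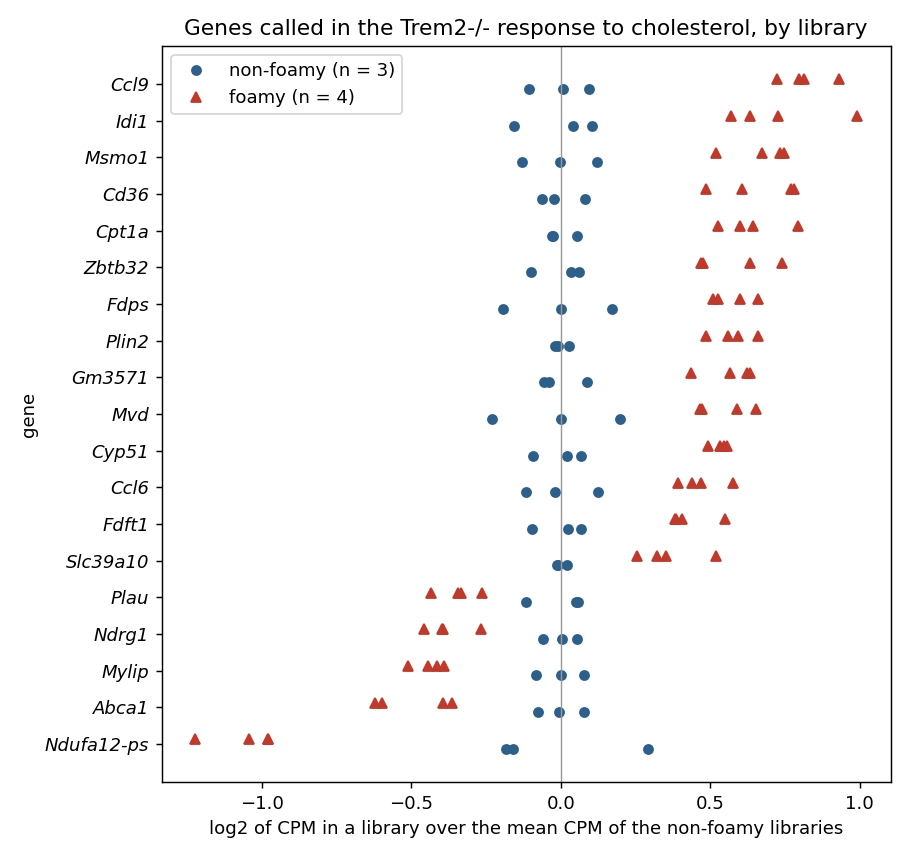
Level of the 19 named called genes in each Trem2-/- library, as log2 of CPM over the mean of the 3 non-foamy libraries (circles, non-foamy, n = 3; triangles, foamy, n = 4). For each gene all triangles lie on one side of all circles, and the largest displacement is that of Ndufa12-ps, at a fitted log2 fold change of −1.05.

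Cholesterol is built from acetyl units through mevalonate and squalene, and the enzymes of this route are classical SREBP2 targets. In Trem2-/- cells 6 of the 19 tested enzymes rose with cholesterol and none fell. Of 7 mevalonate pathway enzymes, 3 were called higher and none lower, and of 12 tested enzymes between squalene and cholesterol, 3 were called higher and none lower, beside 0.105% of all tested genes called higher. For 12 of these 19 enzymes the foamy libraries lay above all non-foamy libraries (5.38% of all tested genes did). All 19 had a fitted fold change above 0. Their median log2 fold change was 0.34 for the mevalonate enzymes and 0.33 for the later enzymes, against 0.005 for all tested genes. Without foamy replicate 4 the medians were 0.37 and 0.35.

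The sequences just before the RefSeq transcription start of 4 of the called enzymes are shown because the enzymes moved together and share a short motif. The letters CCAAT (either strand), the binding motif of NF-Y, a factor known to act beside SREBPs, are in capitals. The sequences are the 250 bases before the RefSeq start in GRCm38.p6, printed on the gene's strand: chr8:64733579-64733828 (minus strand) for Msmo1, chr13:8885356-8885605 (plus strand) for Idi1, chr8:122443423-122443672 (minus strand) for Mvd and chr5:4104698-4104947 (minus strand) for Cyp51.
Msmo1: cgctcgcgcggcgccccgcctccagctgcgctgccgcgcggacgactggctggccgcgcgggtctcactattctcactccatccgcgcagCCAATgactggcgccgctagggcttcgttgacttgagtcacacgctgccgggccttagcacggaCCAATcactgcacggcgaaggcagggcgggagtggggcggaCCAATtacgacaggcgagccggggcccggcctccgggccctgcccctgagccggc
Idi1: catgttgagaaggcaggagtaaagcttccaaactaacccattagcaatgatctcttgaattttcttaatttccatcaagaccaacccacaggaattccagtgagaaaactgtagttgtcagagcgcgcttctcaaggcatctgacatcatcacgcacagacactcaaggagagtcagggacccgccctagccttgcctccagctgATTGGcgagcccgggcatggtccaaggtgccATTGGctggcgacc
Mvd: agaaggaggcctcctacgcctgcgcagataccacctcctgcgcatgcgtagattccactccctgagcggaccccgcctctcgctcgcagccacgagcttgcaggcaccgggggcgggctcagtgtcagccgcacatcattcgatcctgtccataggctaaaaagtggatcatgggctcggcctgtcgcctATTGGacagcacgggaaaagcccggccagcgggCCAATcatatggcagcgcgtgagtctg
Cyp51: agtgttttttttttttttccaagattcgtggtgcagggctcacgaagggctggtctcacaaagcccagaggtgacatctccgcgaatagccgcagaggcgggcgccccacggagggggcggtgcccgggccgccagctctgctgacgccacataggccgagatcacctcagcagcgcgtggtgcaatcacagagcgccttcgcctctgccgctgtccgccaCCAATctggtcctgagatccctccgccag
The motif occurs 3 times before Msmo1, the nearest starting 55 bases before the RefSeq start. It occurs 2 times before Idi1, 2 times before Mvd and 1 time before Cyp51. GENCODE starts the genes further out for Msmo1 (64733792), Idi1 (8885501) and Cyp51 (4104746). By that annotation the marked letters of these genes lie within the gene. A promoter sequence was given for 16 of the 20 listed enzymes, and 15 of the 16 hold the motif in at least 1 promoter. Counted by promoter and not by gene, 33.8% of all 32851 promoters of the same length hold it. Counted by gene, it was also found for 12 of 25 PPAR target and oxidation genes. It was found as well for 5 of 12 LXR receptors and targets, among them Mylip, which fell. The sterol element spelled as TCACNCCAC (either strand) was found before 1 of the 16 enzymes, Hmgcs1, and in 1.05% of all promoters. These are matches of letters and were not measured as binding sites.

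Msmo1, the C4-demethylating sterol oxidase, had the most significant change of the enzymes. It was counted at 60.4, 55.4 and 50.7 CPM in the non-foamy libraries and at 92.3, 79.5, 88.5 and 93.0 CPM in the foamy libraries. All 4 foamy libraries were above all 3 non-foamy ones, and the log2 fold change was 0.67 (SE 0.08, adjusted p = 7.76e-05). Cyp51, the lanosterol demethylase, read 41.0, 44.4 and 45.9 CPM without and 63.3, 61.5, 63.9 and 64.3 CPM with cholesterol. The foamy values lay close together, and the log2 fold change was 0.53 (SE 0.06, adjusted p = 7.76e-05). Idi1, the isopentenyl diphosphate isomerase, read 14.6, 13.9 and 12.1 CPM without and 22.4, 21.0, 20.1 and 27.0 CPM with cholesterol. Its log2 fold change of 0.74 (SE 0.10, adjusted p = 6.48e-04) was the largest of the enzymes, with foamy replicate 4 the highest library. Of the 50-base stretches of Idi1, 25.3% also occur in other genes, mainly Gm13502.

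Fdft1, the squalene synthase, read 39.9, 41.1 and 36.7 CPM without and 57.4, 52.0, 51.2 and 51.3 CPM with cholesterol. Foamy replicate 1 was the high library, the groups did not overlap, and the log2 fold change was 0.43 (SE 0.07, adjusted p = 0.00167). Exons of Ctsb, the cathepsin B gene, overlap 18.3% of the exonic length of Fdft1, and Ctsb was counted at 6194 to 6902 CPM with a log2 fold change of −0.11 (adjusted p = 0.825). Mvd, the mevalonate diphosphate decarboxylase, read 26.8, 22.8 and 30.7 CPM without and 37.2, 40.3, 42.2 and 37.0 CPM with cholesterol. Its log2 fold change was 0.55 (SE 0.09, adjusted p = 0.00819), and it was not called when foamy replicate 3, non-foamy replicate 1 or non-foamy replicate 2 was left out. Fdps, the farnesyl diphosphate synthase, read 12, 15.4 and 13.7 CPM without and 20.8, 19.5, 21.7 and 19.8 CPM with cholesterol, a log2 fold change of 0.58 (SE 0.09, adjusted p = 0.00285). Without non-foamy replicate 1 its adjusted p was 0.0789. Exons of Gm43738 overlap 26.7% of the exonic length of Fdps.

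Gm3571, a processed pseudogene that shares 54.3% of its 50-base stretches with other genes, mainly Fdps, moved with it. It read 10.5, 11.6 and 10.6 CPM without and 17.0, 14.8, 16.2 and 16.8 CPM with cholesterol (log2 fold change 0.57, SE 0.10, adjusted p = 0.00689). The share of the summed reads that fell on the pseudogene was 42.9% to 46.7% without and 42.7% to 45.9% with cholesterol. With both counts added, the log2 fold change was 0.57 (SE 0.07, adjusted p = 2.56e-04), and the call held. The call of Gm3571 alone was lost without non-foamy replicate 1 (adjusted p = 0.093) and without non-foamy replicate 3 (adjusted p = 0.0613).

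The other enzymes had smaller or less certain differences. Hmgcs1, the cytosolic HMG-CoA synthase, read 43.5, 49.6 and 52.3 CPM without and 64.5, 58.8, 57.3 and 62.7 CPM with cholesterol. The groups did not overlap, and the log2 fold change of 0.33 (SE 0.07) missed the threshold (adjusted p = 0.0765). Exons of Gm48342 overlap 12.1% of the exonic length of Hmgcs1. Hsd17b7, Nsdhl and Sqle, which act on later sterols or on squalene, also had foamy libraries above all non-foamy ones, with log2 fold changes of 0.56 (adjusted p = 0.169), 0.38 (adjusted p = 0.179) and 0.29 (adjusted p = 0.224). DESeq2 called 4 mevalonate enzymes and 6 later enzymes, adding Hmgcs1, Sqle, Nsdhl and Hsd17b7, beside 0.379% of all tested genes. Of the rest, Sc5d and Ebp had no overlap (0.26, adjusted p = 0.453 and 0.21, adjusted p = 0.774). Acat2, Mvk, Pmvk, Lss, Lbr, Tm7sf2 and Dhcr7 did overlap, with fitted values from 0.04 for Dhcr7 to 0.57 for Tm7sf2, which was counted at 1.12 to 4.03 CPM.

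The response of these enzymes differed from that in WT cells, and the 2 responses share no library. In WT cells all 19 had a fitted fold change below 0. The difference between the responses was itself tested as a contrast, which called 518 of the 14237 tested genes (3.64%), and it called 15 of the 19 enzymes. Msmo1 had a mean of 170 CPM in WT non-foamy and 95.9 CPM in WT foamy libraries, and its difference between the responses was 1.49 on the log2 scale (SE 0.10, adjusted p = 5.83e-09). Idi1 had means of 52.6 and 27.1 CPM in WT cells and a difference of 1.70 (SE 0.14, adjusted p = 4.8e-08). Cyp51 had means of 134 and 78.1 CPM in WT cells and a difference of 1.31 (SE 0.08, adjusted p = 3.1e-09). The Trem2-/- non-foamy level of these enzymes was the lowest of the 4 groups, and the foamy levels of the genotypes were closer to each other than the non-foamy levels: for Msmo1 the means were 55.5 CPM in Trem2-/- non-foamy and 88.3 CPM in Trem2-/- foamy libraries.

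**Figure D2:**
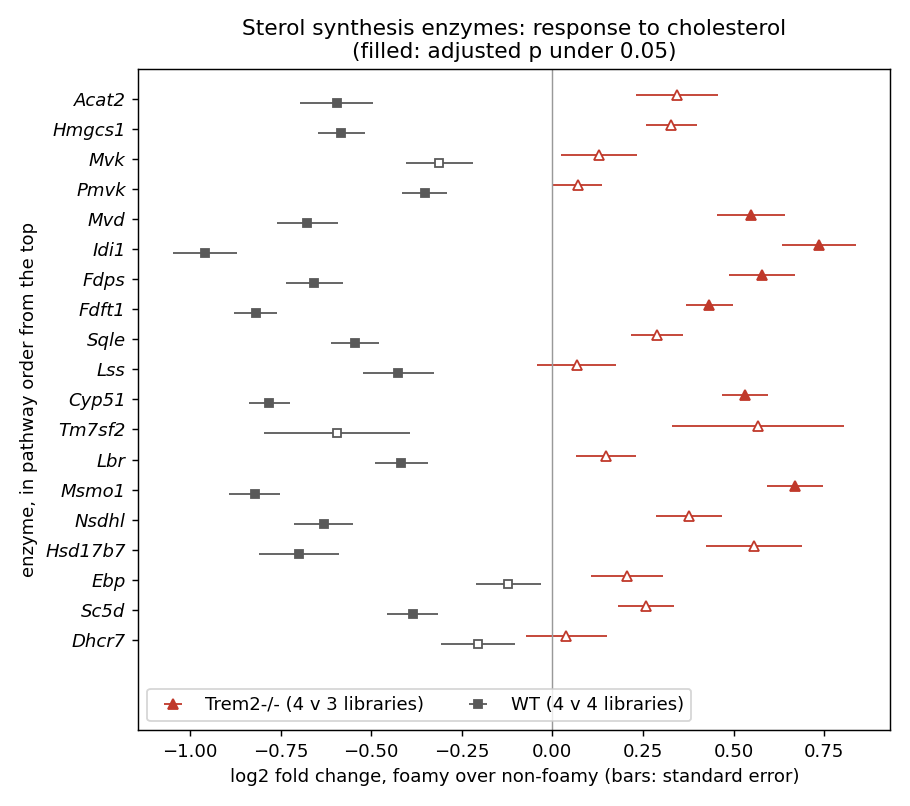
Response to cholesterol of 19 sterol synthesis enzymes in pathway order, as log2 fold change with standard error (triangles, Trem2-/-, 4 against 3 libraries; squares, WT, 4 against 4 libraries; filled, adjusted p under 0.05). All 19 triangles lie above 0, up to 0.74 for Idi1, and all 19 squares lie below 0.

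The sensors of this system and the other SREBP2 targets moved less. Of 11 tested genes, edgeR called 0, 3 passed an unadjusted p under 0.05, and DESeq2 called 1 (Stard4), beside 0.379% of all tested genes. Insig1, the sterol-dependent anchor of SREBPs and itself a target, read 42.1, 40.1 and 45.5 CPM without and 48.0, 50.8, 48.4 and 51.5 CPM with cholesterol (log2 fold change 0.22, adjusted p = 0.392). Tmem97 (0.25, adjusted p = 0.285) and Stard4, a sterol carrier (0.27, adjusted p = 0.179), likewise did not overlap. Srebf2 itself read 54.1 to 72.0 CPM without and 52.4 to 77.2 CPM with cholesterol, overlapping fully (0.16, adjusted p = 0.867). The list's median was 0.02, and it was 0.08 without foamy replicate 4. Fatty acid synthesis genes, the SREBP1 arm, had 0 of 15 called by either tool and a median of −0.002, with 1 at an unadjusted p under 0.05: Scd2, a desaturase, at 936 to 1045 CPM without and 684 to 886 CPM with cholesterol (−0.29, adjusted p = 0.660).

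Among LXR targets, Abca1 and Mylip fell with cholesterol. Of 13 tested receptors and targets, 2 were called lower and none higher (0.0351% of all tested genes were called lower), and for 4 the foamy libraries lay below all non-foamy ones (3.88% of all tested genes did). The median log2 fold change was −0.13. Abca1, the transporter that loads cholesterol onto apolipoprotein A-I, read 87.2, 78.4 and 82.4 CPM without and 53.7, 62.9, 64.3 and 54.6 CPM with cholesterol. Its log2 fold change of −0.49 (SE 0.10) lay just inside the threshold (adjusted p = 0.0478), and the call was lost when any 1 of the 7 libraries was left out. Mylip, the ligase that degrades lipoprotein receptors, read 38.8, 40.9 and 36.6 CPM without and 29.1, 29.6, 27.2 and 28.5 CPM with cholesterol (−0.44, SE 0.08, adjusted p = 0.0128). The foamy libraries lay close together and below every non-foamy one, but the call was lost when foamy replicate 3, non-foamy replicate 1 or non-foamy replicate 2 was left out (adjusted p = 0.08, 0.104 and 0.183). Abcg1, which exports cholesterol to HDL, read 97.8, 94.3 and 106 CPM without and 75.2, 81.4, 71.6 and 65.1 CPM with cholesterol (−0.44, SE 0.10), and it missed the threshold in edgeR (adjusted p = 0.169) but not in DESeq2 (adjusted p = 0.0275). Arl4c, another target, did not overlap either (−0.25, adjusted p = 0.293). With total counts in place of TMM factors none of the list was called, and without foamy replicate 4 only Mylip was.

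The receptors overlapped between the groups. Nr1h2 read 31.0, 36.4 and 38.9 CPM without and 35.2, 37.3, 34.4 and 29.3 CPM with cholesterol (−0.06, adjusted p = 0.974). Nr1h3 read 16.7 to 19.0 CPM without and 15.7 to 19.3 CPM with cholesterol (−0.03, adjusted p = 0.986). In WT cells Abca1 had means of 34.2 CPM in non-foamy and 60.7 CPM in foamy libraries, and its difference between the responses was −1.31 (SE 0.14, adjusted p = 4.32e-06). The difference was −1.19 for Abcg1 (adjusted p = 2.25e-05), −0.91 for Mylip (adjusted p = 2.04e-05) and −0.69 for Arl4c (adjusted p = 1.04e-04), and 5 of the 13 genes were called in it, beside 3.64% of all tested genes. Trem2-/- non-foamy libraries had the highest Abca1 of the 4 groups, and after cholesterol the genotypes overlapped (53.7 to 64.3 CPM in Trem2-/- and 53.8 to 74.6 CPM in WT foamy libraries).

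Enzymes that make or degrade oxysterols, the ligands of LXR, were near the limit of detection. Only 3 of 7 listed genes were tested, and neither tool called one. Hsd11b1, which acts on steroids and oxysterols, was at 0 in non-foamy replicate 1 and at 0.144 and 0.132 CPM in the other non-foamy libraries, and at 0.612, 0.318, 0.253 and 0.446 CPM in the foamy libraries (adjusted p = 0.687).

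The lipid droplet gene Plin2 and the fatty acid genes Cpt1a and Cd36 also rose with cholesterol. Plin2, the coat protein of lipid droplets, read 205, 207 and 212 CPM without and 314, 292, 307 and 328 CPM with cholesterol. The libraries of each group lay close together, and the log2 fold change was 0.58 (SE 0.07, adjusted p = 1.84e-04). Cpt1a, the enzyme that admits long-chain fatty acids to mitochondria, read 28.4, 30.1 and 28.3 CPM without and 41.7, 50.2, 45.2 and 43.9 CPM with cholesterol (0.64, SE 0.08, adjusted p = 7.76e-05). Cd36, a scavenger receptor that takes up oxidised lipoproteins and fatty acids, read 17.2, 16.0 and 15.6 CPM without and 24.8, 27.8, 22.8 and 28.0 CPM with cholesterol (0.67, SE 0.10, adjusted p = 0.00167). The 3 genes stayed called under every alternative.

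Plin2, Cpt1a and Cd36 are known targets of PPAR receptors, and the sequences before their RefSeq starts are shown because each holds the letters AGGTCA (either strand), the nuclear receptor half-site. Capitals mark that half-site and CCAAT, in GRCm38.p6 on the gene's strand: chr4:86670060-86670309 (minus strand) for Plin2, chr19:3323051-3323300 (plus strand) for Cpt1a and chr5:17835897-17836146 (minus strand) for Cd36.
Plin2: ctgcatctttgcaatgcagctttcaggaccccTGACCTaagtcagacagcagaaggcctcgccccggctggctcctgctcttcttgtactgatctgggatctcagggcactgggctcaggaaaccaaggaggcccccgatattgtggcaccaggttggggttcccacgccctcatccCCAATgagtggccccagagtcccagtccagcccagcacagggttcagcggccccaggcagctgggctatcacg
Cpt1a: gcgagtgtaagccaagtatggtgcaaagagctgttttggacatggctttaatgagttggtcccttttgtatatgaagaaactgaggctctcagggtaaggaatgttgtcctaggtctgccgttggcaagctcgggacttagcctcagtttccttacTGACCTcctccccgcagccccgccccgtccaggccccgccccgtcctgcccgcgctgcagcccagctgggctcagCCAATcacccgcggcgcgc
Cd36: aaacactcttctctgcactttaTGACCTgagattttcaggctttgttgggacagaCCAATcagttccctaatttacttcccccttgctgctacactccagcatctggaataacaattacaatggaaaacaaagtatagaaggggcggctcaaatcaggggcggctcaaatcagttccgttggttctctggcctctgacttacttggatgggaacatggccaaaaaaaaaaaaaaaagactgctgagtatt
The half-site starts 218 bases before the RefSeq start of Plin2, 94 before that of Cpt1a and 228 before that of Cd36. Counted by promoter, it was found in 14% of all 32851 promoters of this length. Counted by gene, with any of its promoters taken, it was found in 5 of the 25 PPAR target and oxidation genes with a promoter given. It was also found in 2 of the 12 LXR receptors and targets with a promoter given, but not before Abca1 (chr4:53159896-53160145, minus strand). Only these exact letters were searched, so half-sites spelled otherwise would be missed. Its absence before Abca1 therefore does not show that a receptor site is lacking there. Of the 13 named called genes with a promoter given, 4 hold the exact half-site: Plin2, Cpt1a, Cd36 and Ccl6. Cd36 and Cpt1a have further starts that these windows do not cover, and both windows lie within the gene as GENCODE annotates it.

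Around these genes, most of the pathway did not pass the test. Of 24 tested PPAR targets and fatty acid oxidation genes, 2 were called higher and none lower (0.105% and 0.0351% of all tested genes), 6 passed an unadjusted p under 0.05, and 19 had a fitted value above 0, with a median of 0.07. Foamy libraries lay above all non-foamy ones for 7 of the 24 (5.38% of all tested genes). Besides Cpt1a and Cd36 these were Acaa2, the mitochondrial thiolase (0.28, adjusted p = 0.228), Ucp2, a mitochondrial carrier (0.27, adjusted p = 0.322), Slc25a20, the carnitine-acylcarnitine carrier (0.28, adjusted p = 0.596), Pex11a (0.26, adjusted p = 0.791) and Eci1 (0.12, adjusted p = 0.867). Acaa2 read 53.1, 55.6 and 58.0 CPM without and 72.5, 58.2, 70.8 and 68.9 CPM with cholesterol. Fabp5, a fatty acid carrier at 1933 to 2130 CPM without and 1978 to 2168 CPM with cholesterol, overlapped (0.02, adjusted p = 0.988), and so did Fabp4 (−0.05, adjusted p = 0.974). Of 4 tested PPAR receptors and partners neither tool called any, and none passed an unadjusted p under 0.05. Ppard read 9.31 to 14.4 CPM without and 10.8 to 11.9 CPM with cholesterol, and Pparg stayed under 1 CPM in all 7 libraries.

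Of 12 tested lipid droplet and cholesterol ester genes, 1 was called higher, Plin2, beside 0.105% of all tested genes. Hilpda, which inhibits the lipase of droplets, did not overlap at 79.0, 76.9 and 81.3 CPM without and 90.9, 95.8, 96.5 and 105 CPM with cholesterol (0.30, SE 0.09, adjusted p = 0.392). Soat1, the enzyme that esterifies cholesterol, overlapped at 553 to 562 CPM without and 504 to 556 CPM with cholesterol (−0.09, adjusted p = 0.867). The difference between the responses was 0.63 for Plin2 (SE 0.10, adjusted p = 7.96e-04), 0.67 for Cpt1a (SE 0.10, adjusted p = 5.05e-04) and 0.99 for Cd36 (SE 0.14, adjusted p = 1.41e-04). In WT cells the log2 fold changes of these genes were −0.05 (adjusted p = 0.781), −0.02 (adjusted p = 0.905) and −0.33 (adjusted p = 0.0547).

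**Figure D3:**
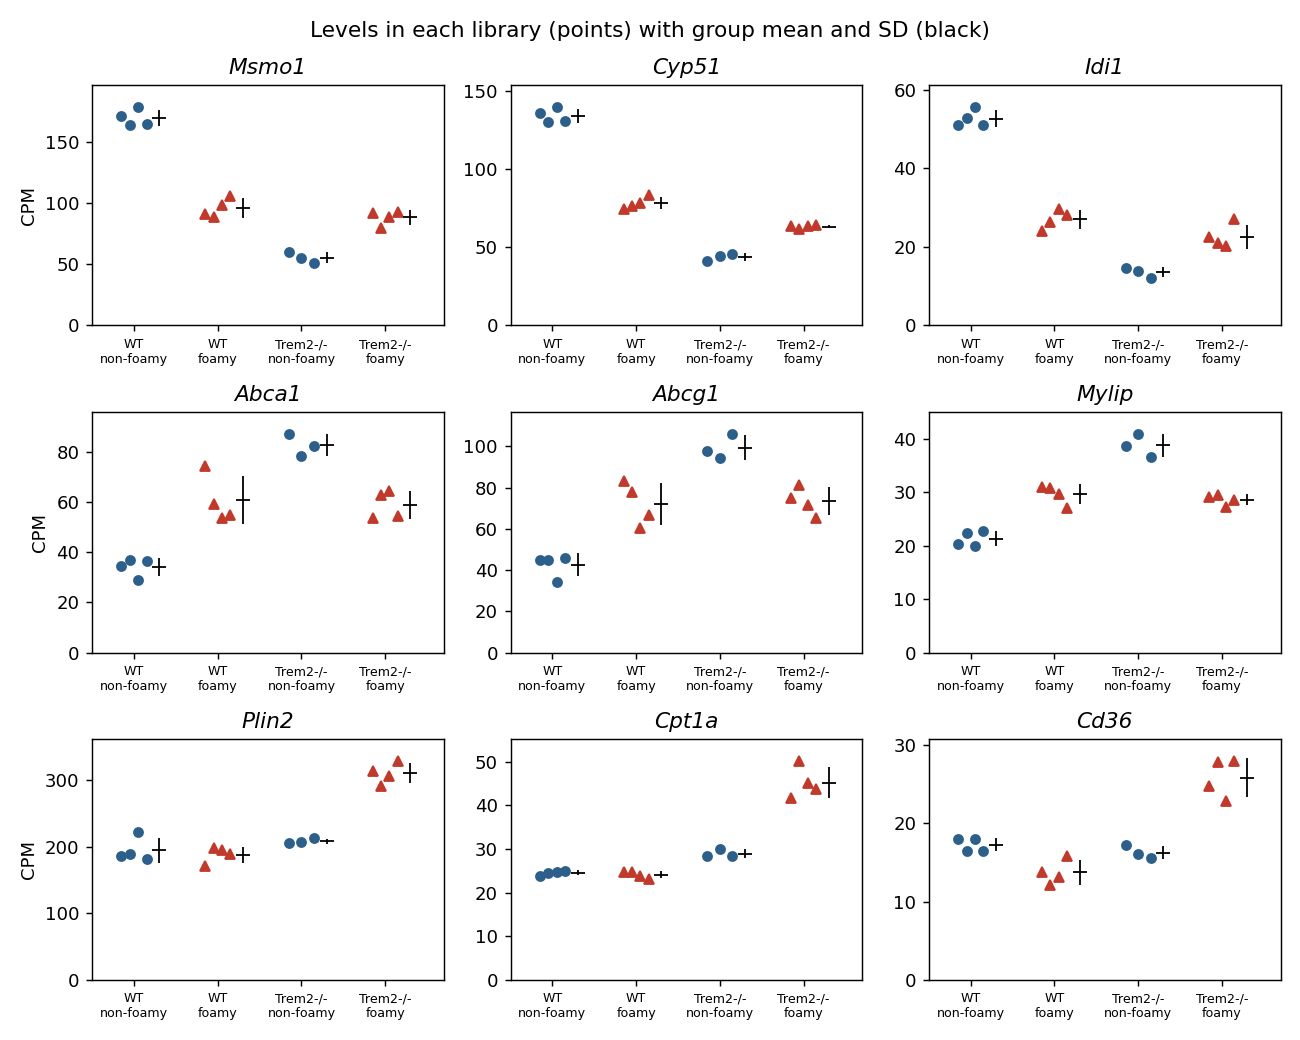
Levels in CPM of 9 genes in each library of the 4 groups (circles, non-foamy; triangles, foamy; black, mean with SD; n = 4, 4, 3 and 4 from left to right). The sterol enzymes (top) and the LXR targets (middle) lay far apart between genotypes without cholesterol and closer with it, as for Abca1 at means of 34.2 and 82.7 CPM without cholesterol and 60.7 and 58.9 CPM with it. Plin2, Cpt1a and Cd36 (bottom) stood highest in Trem2-/- foamy libraries.

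Other receptors that take up modified lipoproteins showed smaller values. Of 10 tested scavenger and lipoprotein receptors, 1 was called higher (0.105% of all tested genes), and it was Cd36, already counted among the PPAR targets. A fitted value above 0 was found for 9 of the 10, beside 7305 of the 14237 tested genes, and the median was 0.16. Msr1, the class A scavenger receptor, read 15.1, 17.0 and 14.3 CPM without and 17.1, 19.2, 17.6 and 21.2 CPM with cholesterol (0.28, adjusted p = 0.624), and Scarb2, a lysosomal member of the Cd36 family, had a log2 fold change of 0.17 (adjusted p = 0.658). Neither overlapped, by a narrow margin for Msr1.

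The CC chemokine genes Ccl9 and Ccl6 rose as well, and no list of chemokines was counted. Ccl9, a CC chemokine of myeloid cells, had the smallest adjusted p of all genes. It read 26.7, 25.1 and 23.2 CPM without and 43.5, 44.0, 41.3 and 47.7 CPM with cholesterol, and its log2 fold change was 0.82 (SE 0.08, adjusted p = 2.87e-05), the largest among the named called genes that rose. In WT cells the means were 68.9 CPM without and 45.4 CPM with cholesterol. The Trem2-/- response exceeded the WT response by 1.42 on the log2 scale (SE 0.11, adjusted p = 4.8e-08). Ccl6, which lies beside it on chromosome 11 (83587882 to 83593087, against 83572919 to 83578636 for Ccl9, GRCm38), read 10.8, 10.1 and 12 CPM without and 15.2, 14.4, 16.4 and 14.9 CPM with cholesterol (0.47, SE 0.09, adjusted p = 0.0353). Ccl6 is the 1 called gene that was not called in the difference between the responses (0.42, adjusted p = 0.0593). The other 19 called genes were called in it, but the Trem2-/- response that selected them is part of that difference, so nothing is read from their number.

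Further called genes came 1 to a function. Slc39a10, a zinc importer, read 84.3, 84.0 and 85.9 CPM without and 108, 101, 106 and 121 CPM with cholesterol (0.37, SE 0.07, adjusted p = 0.0353). Zbtb32, a transcriptional repressor, read 4.53, 4.62 and 4.14 CPM without and 7.39, 6.14, 6.87 and 6.16 CPM with cholesterol (0.59, SE 0.12, adjusted p = 0.0466), and its call was lost when any 1 library was left out. Among decreases, Ndrg1, a gene induced by hypoxia and stress, read 324, 338 and 351 CPM without and 256, 281, 257 and 246 CPM with cholesterol (−0.38, SE 0.07, adjusted p = 0.0273). Plau, the urokinase that activates plasminogen, read 146, 164 and 163 CPM without and 117, 131, 124 and 125 CPM with cholesterol (−0.34, SE 0.07, adjusted p = 0.0390). Slc39a10, Ndrg1, Plau and Ccl6 were each called under 7 of 14 alternatives.

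The largest fold change of a called gene belongs to a pseudogene. Ndufa12-ps, a processed pseudogene on chromosome 5 (130188395 to 130188796, GRCm38), read 22.5, 22.1 and 30.7 CPM without and 12.1, 12.7, 12.7 and 10.7 CPM with cholesterol (−1.05, SE 0.13, adjusted p = 1.84e-04). Of its 50-base stretches, 78.8% occur in other genes, mainly its parent Ndufa12, which codes for a complex I subunit. Ndufa12 read 57.9, 56.9 and 44.7 CPM without and 79.6, 74.1, 75.3 and 79.0 CPM with cholesterol (0.53, SE 0.12, adjusted p = 0.0997). The library with most reads on the pseudogene, non-foamy replicate 3, had the fewest on the parent. The pseudogene held 28.0%, 28.0% and 40.7% of the summed reads without and 13.3%, 14.7%, 14.4% and 12% with cholesterol. With both counts added, the levels were 80.3, 79.0 and 75.4 CPM without and 91.7, 86.8, 88.1 and 89.7 CPM with cholesterol, and the log2 fold change was 0.19 (SE 0.11, adjusted p = 0.821). How reads with several matches were assigned is not stated, and its part in the result was not tested.

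**Figure D4:**
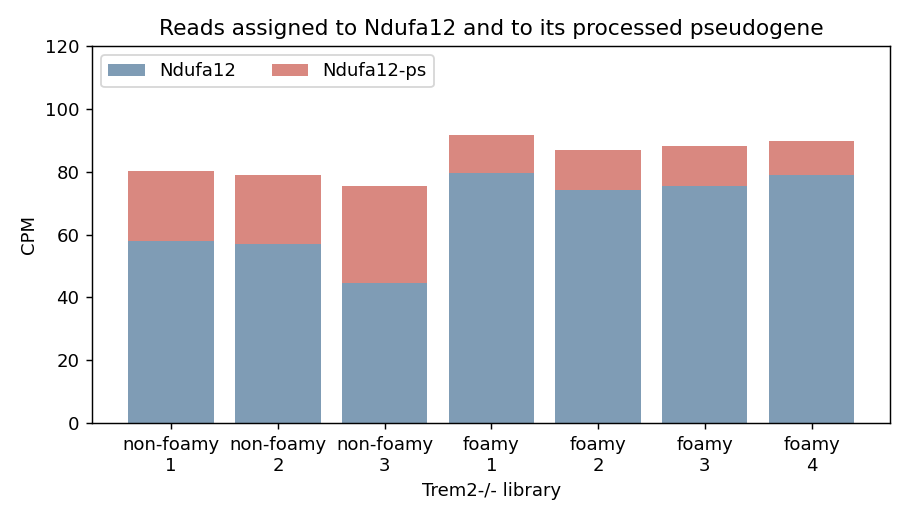
Stacked CPM of Ndufa12 (lower bar) and of its processed pseudogene Ndufa12-ps (upper bar) in each Trem2-/- library. The pseudogene's part is 28.0% to 40.7% of the sum in the 3 non-foamy libraries and 12% to 14.7% in the 4 foamy libraries, while the sum ranges from 75.4 to 91.7 CPM.

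Lysosomal genes, which handle internalised lipid, were not called. Of 22 tested hydrolases and V-ATPase genes both tools called 0, 3 passed an unadjusted p under 0.05, 3 had a fitted value above 0, and the median was −0.08. Ctss, the cathepsin S gene, read 4141, 3881 and 3734 CPM without and 3471, 3327, 3272 and 3698 CPM with cholesterol (−0.19, adjusted p = 0.722). Ctsb and Tfe3 likewise lay below in all foamy libraries (−0.11 and −0.18). In the difference between the responses 6 of the 22 were called (3.64% of all tested genes), among them Atp6v0d2, a V-ATPase subunit of macrophages (−0.73, adjusted p = 0.00122), and Psap, the saposin precursor (−0.57, adjusted p = 0.0107). Of 13 lysosomal sterol transport genes both tools called 0, and 1 passed an unadjusted p under 0.05, Osbpl8, an oxysterol-binding protein, at 412 to 429 CPM without and 356 to 402 CPM with cholesterol (−0.18, adjusted p = 0.687). Npc1, which moves cholesterol out of lysosomes, overlapped (−0.16, adjusted p = 0.867).

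Genes that mark lipid-associated macrophages mostly overlapped between the groups. Of 17 tested, both tools called 0, and 2 passed an unadjusted p under 0.05. Gpnmb, a lysosomal glycoprotein of foam cells, read 7550, 7163 and 7653 CPM without and 6500, 6881, 6184 and 5751 CPM with cholesterol (−0.24, SE 0.09, adjusted p = 0.654), and Csf1, a macrophage growth factor, read 58.1 to 62.5 CPM without and 42.1 to 55.9 CPM with cholesterol (−0.30, adjusted p = 0.616). Spp1 was at 6083 to 6718 CPM without and 6113 to 6824 CPM with cholesterol (−0.02, adjusted p = 0.988), and Lgals3 and Lpl were as close (−0.02 and 0.02). The difference between the responses was −0.64 for Gpnmb (adjusted p = 0.00312).

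Stress pathways gave no calls in the Trem2-/- response itself. Of 17 tested unfolded protein response genes both tools called 0, and 1 passed an unadjusted p under 0.05, Sdf2l1, a chaperone partner (0.21, adjusted p = 0.616). Hspa5, the chaperone BiP, read 637, 633 and 612 CPM without and 606, 584, 577 and 620 CPM with cholesterol (−0.07, SE 0.06, adjusted p = 0.885), and Xbp1 read 147 to 156 and 146 to 164 CPM (0.05, adjusted p = 0.942). Of 19 integrated stress response genes both tools called 0, and 1 passed an unadjusted p under 0.05: Psat1, of serine synthesis, at 253 to 269 CPM without and 279 to 301 CPM with cholesterol (0.16, adjusted p = 0.687). Ddit3, the CHOP gene, read 11.9, 7.76 and 10.1 CPM without and 7.98, 8.40, 8.54 and 8.65 CPM with cholesterol (−0.25, adjusted p = 0.812). Atf3, a stress-induced transcription factor, lay below in all foamy libraries (−0.14, adjusted p = 0.774). In the difference between the responses 5 of the 19 were called, beside 3.64% of all tested genes. Among them were Atf3 (−0.49, adjusted p = 0.00322) and Psat1 (0.44, adjusted p = 0.00407). Of the 17 unfolded protein response genes 1 was called in that difference. Gene counts do not measure Xbp1 splicing. Of 14 NRF2 targets both tools called 0, 2 passed an unadjusted p under 0.05, and 12 had a fitted value above 0, with a median of 0.08. Gsr, the glutathione reductase, did not overlap (0.30, adjusted p = 0.697).

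Inflammatory genes were also within their spread or close to it. Of 12 tested cytokine and classical activation genes both tools called 0, and 3 passed an unadjusted p under 0.05. A fitted value above 0 was found for 8 of the 12, with a median of 0.10. The foamy libraries lay entirely above for 1 gene, Ccl3, and entirely below for 1, Il1a. Il1a read 9.26, 10.1 and 9.0 CPM without and 7.09, 6.81, 7.56 and 5.72 CPM with cholesterol (−0.48, SE 0.16, adjusted p = 0.596), and its difference between the responses was −1.52 (adjusted p = 0.00113). Ccl3, a CC chemokine, read 83.3, 85.5 and 88.1 CPM without and 94.0, 90.7, 95.4 and 103 CPM with cholesterol (0.16, adjusted p = 0.704). Its difference between the responses was 0.58 (adjusted p = 7.07e-04). In that difference 4 of the 12 were called, beside 3.64% of all tested genes. Il1b and Tnf overlapped at under 10 CPM. Of 8 alternative activation genes edgeR called 0 and 3 passed an unadjusted p under 0.05. DESeq2 called 1 of the 8, beside 0.379% of all tested genes. Arg1, the arginase, read 118, 123 and 108 CPM without and 138, 141, 130 and 148 CPM with cholesterol (0.26, SE 0.07, adjusted p = 0.224, DESeq2 adjusted p = 0.0496), and the lectins Clec10a and Mgl2 were also above in all foamy libraries (0.27 and 0.29, adjusted p = 0.596 and 0.704). Of 13 interferon-stimulated genes both tools called 0 and none passed an unadjusted p under 0.05, and 2 had a fitted value above 0, with a median of −0.12. Without foamy replicate 4 that median was −0.08. Of 9 immediate early genes both tools called 0 and none passed an unadjusted p under 0.05.

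Cell cycle genes did not change detectably. Of 20 S phase genes both tools called 0, 3 passed an unadjusted p under 0.05, and 14 had a fitted value above 0, with a median of 0.11. Ccne1, cyclin E1, read 3.45, 5.85 and 4.63 CPM without and 8.03, 6.33, 5.66 and 6.24 CPM with cholesterol (0.51, SE 0.17, adjusted p = 0.564), and Rrm2, of nucleotide synthesis, was above in all foamy libraries (0.21, adjusted p = 0.713). Of 20 G2/M genes both tools called 0, 1 passed an unadjusted p under 0.05, and the median was 0.04. Of 10 D cyclins and inhibitors both tools called 0 and 2 passed an unadjusted p under 0.05, Ccnd1 (0.27, adjusted p = 0.753) and Ccnd2 (0.31, adjusted p = 0.703). In the difference between the responses 3 S phase genes, 8 G2/M genes and 3 of the last list were called, beside 3.64% of all tested genes, among them Ccnd2 (0.72, adjusted p = 0.0107). Of 14 glycolysis and hypoxia genes 1 was called lower, Ndrg1, beside 0.0351% of all tested genes. Hk2, a hexokinase, lay below in all foamy libraries, as did 3.88% of all tested genes, at 130 to 138 CPM without and 99.5 to 120 CPM with cholesterol (−0.29, adjusted p = 0.616).

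Of 13 mitochondrially encoded mRNAs both tools called 0, and 2 passed an unadjusted p under 0.05. All 13 had a fitted value above 0 with a median of 0.10, which was 0.02 without foamy replicate 4. mt-Co1 read 43444 to 49785 CPM without and 41246 to 54961 CPM with cholesterol (0.00, adjusted p = 0.999). The largest values came from genes whose libraries scattered widely. mt-Co3 read 113, 123 and 54.5 CPM without and 458, 125, 161 and 103 CPM with cholesterol (1.13, SE 0.50, adjusted p = 0.738), and mt-Atp6 read 72.9, 163 and 23.8 CPM without and 326, 238, 41.0 and 225 CPM with cholesterol (1.27, SE 0.72, adjusted p = 0.821). The groups overlapped for both.

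**Figure D5:**
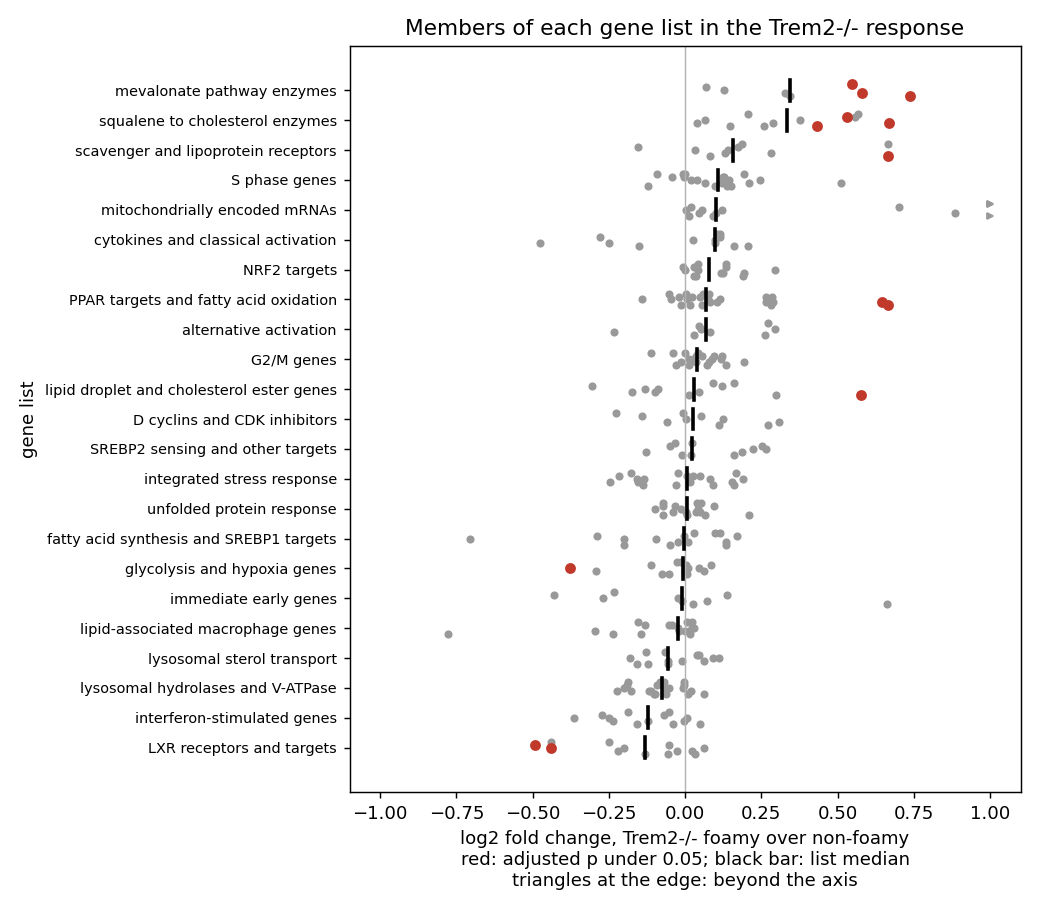
Log2 fold change (Trem2-/- foamy over non-foamy) of each tested member of 23 gene lists (points; red, adjusted p under 0.05; black bar, list median; edge triangles, beyond ±1). The red points lie in the sterol enzyme, LXR, lipid droplet, PPAR target, scavenger receptor and glycolysis and hypoxia lists, and the medians run from −0.13 for LXR receptors and targets to 0.34 for mevalonate enzymes.

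Outside the threshold, the 10 higher and 10 lower uncalled genes of smallest p were taken among those whose groups did not overlap, so their separation was set by the choice, and their adjusted p reached 0.228. The smallest p among them was that of Slc37a2, a sugar-phosphate exchanger of macrophages, at 108, 115 and 114 CPM without and 92.6, 90.4, 84.6 and 82.6 CPM with cholesterol (−0.36, SE 0.07, adjusted p = 0.0518). Tmem65, a mitochondrial membrane protein, read 90.6, 94.8 and 91.7 CPM without and 75.6, 72.0, 70.6 and 81.5 CPM with cholesterol (−0.30, SE 0.06, adjusted p = 0.0630), and it was called without foamy replicate 4 (adjusted p = 0.0192). Id3 and Id2, inhibitors of basic helix-loop-helix factors, had log2 fold changes of −0.54 (adjusted p = 0.169) and −0.33 (adjusted p = 0.206). Cd14, the lipopolysaccharide co-receptor, read 64.2, 64.1 and 64.4 CPM without and 79.3, 73.7, 75.2 and 74.9 CPM with cholesterol (0.24, SE 0.06, adjusted p = 0.169). Mettl26 (0.46, adjusted p = 0.0870), Uxs1 (0.31, adjusted p = 0.179) and Ccl25 (0.54, adjusted p = 0.193) were the other high genes of this set. H1f0, Tent5c, Bhlhe41, Cep85 and Oas3 completed the low genes, with log2 fold changes from −0.60 for Oas3 (adjusted p = 0.228) to −0.27 for Tent5c (adjusted p = 0.186). DESeq2 called all 20 genes of this set (10 higher and 10 lower), which also holds the sterol enzymes and Abcg1, Stard4 and Ndufa12 described above.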

How the data were processed

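RNA was sequenced by the submitters from BV2 cells. The authors deposited 1 table of raw read counts per library for 54390 genes, which the CHURP pipeline produced per the methods (Trimmomatic, HISAT2 on GRCm38, featureCounts). Strandedness and the treatment of reads with several matches are not given in the sources used here. A single fit of all 15 libraries, with a mean for each group, used edgeR 4.0.16 (glmQLFit, glmQLFTest, TMM factors, filterByExpr with a minimum count of 10, R 4.3.3), which kept 14237 genes with 99.965% of the counts. The biological coefficient of variation was 10.2%. Contrasts were Trem2-/- foamy minus non-foamy, the WT equivalent and their difference. Benjamini-Hochberg adjustment ran over all tested genes, with a threshold of 0.05.

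Named genes were all called genes, members of 33 hand-written lists, Trem2, and the 10 higher and 10 lower genes of smallest p among uncalled genes without overlap and with a mean of at least 1 CPM. The lists and rules were chosen with earlier results of these data known. Of the called genes, 1 is not reported here. Kdr and the DESeq2 genes under the observations were named after their values were seen. Nothing states that replicates were separate cultures, so p-values measure the spread between these libraries. Replicate pairs differed by more than counting noise (chi-square per gene 5.95 to 24.7). Alternatives were DESeq2 1.42.0, RLE factors, total counts, no filter, at least 10 counts in every library, the 7 Trem2-/- libraries alone, a replicate block, and each library left out. A threshold of 0.1 and summed counts of genes with their pseudogenes were added after seeing the data. The code was tested on simulated data. GENCODE M21 matched 99.5% of gene IDs, and RefSeq gave promoters for 13 of 19 called genes.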

Additional observations from a re-analysis of the deposited data

Results flagged for a closer look

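Fdft1 in foamy replicate 1 (57.43 CPM) stood far from the other foamy libraries, the 1 such case among the 39 called and next genes examined in the 4 foamy libraries, where chance flags about 1 group in 20.

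For 35 of the same 39 genes, the Trem2-/- response differed from the WT response by the test of the difference itself (edgeR contrast, adjusted p under 0.05). Because the genes were selected by 1 of the 2 responses, these values describe the selected genes. They are log2 fold changes of the Trem2-/- response minus the WT response. Among sterol enzymes and carriers the difference was 1.7 for Idi1, 1.49 for Msmo1, 1.31 for Cyp51, 1.26 for Hsd17b7, 1.25 for Fdft1, 1.24 for Fdps, 1.19 for its pseudogene Gm3571, 1.22 for Mvd, 1.01 for Nsdhl, 0.91 for Hmgcs1, 0.833 for Sqle and 0.774 for Stard4. Among LXR targets it was −1.31 for Abca1, −1.19 for Abcg1 and −0.912 for Mylip. For fatty acid and droplet genes it was 0.995 for Cd36, 0.669 for Cpt1a and 0.626 for Plin2. Ccl9 had 1.42, Zbtb32 had 1.06, Cd14 had 0.524, Uxs1 had 0.47 and Slc39a10 had 0.468. Ndufa12 had 0.797 and its pseudogene Ndufa12-ps had −1.49. Lower values were found for Id3 (−1.05), Oas3 (−1.0), Slc37a2 (−0.838), Id2 (−0.745), Tent5c (−0.707), Tmem65 (−0.627), Bhlhe41 (−0.562), Ndrg1 (−0.553), Plau (−0.36) and H1f0 (−0.338).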

How the results depend on the processing

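No named called gene changed direction under the alternatives run, while medians of uncalled lists near 0 changed sign in some. Where the count of called genes in the Trem2-/- response (20, with 15 higher and 5 lower) moved by more than 1.5 times, it was 54 with the DESeq2 Wald test (36 higher, 18 lower) and 61 without a filter on low counts (41 higher, 20 lower), and the lower genes were 3 with total counts alone, 9 in the 7 Trem2-/- libraries alone and 3 with the replicate block. Leaving out 1 library gave 10 to 18 called genes, 8 to 14 higher and 1 to 4 lower. RLE factors gave 21, at least 10 counts in every library gave 22, and an adjusted p under 0.1 gave 25. The difference between the responses (518 genes, 284 higher and 234 lower) gave 968 with DESeq2 (554 higher, 414 lower), 352 lower without a filter, and 294 with the replicate block (156 higher, 138 lower). Leaving out 1 library gave 201 to 661, 98 to 373 higher and 103 to 288 lower, the lowest without non-foamy Trem2-/- replicate 1. The causes were not tested, apart from the smaller groups when a library is left out. Trem2-/- libraries of the same replicate number were not visibly closer, with correlations of deviations of −0.0766, −0.0582 and 0.0278 for numbers 1 to 3. Libraries of different numbers gave −0.135 to 0.0898. With deviations centred within such small groups, this check cannot show whether libraries shared a culture or a batch. The replicate block, which left 15 called genes, lost Slc39a10, Abca1, Zbtb32 and Plau. At this depth genes under 1 CPM could not be compared closely.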

Other observations

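DESeq2 called further genes that edgeR did not, and a few are given as values, chosen after they were seen. Kdr, the VEGF receptor gene and a usual endothelial marker, read 1.88, 1.91 and 2.52 CPM in non-foamy and 3.42, 4.26, 3.26 and 3.94 CPM in foamy libraries. Its log2 fold change was 0.82 (DESeq2 adjusted p = 0.0462, edgeR adjusted p = 0.228), and the endothelial markers Cdh5 and Cldn5 were at 0. Smpdl3b, a lipid-modulating phosphodiesterase of the cell surface, had a DESeq2 log2 fold change of 0.23 (adjusted p = 0.0250, edgeR 0.268). Fkbp11, a prolyl isomerase of the secretory pathway, had 0.40 (DESeq2 adjusted p = 0.0496, edgeR 0.228). Mcl1, an anti-apoptotic member of the BCL2 family, had −0.20 (DESeq2 adjusted p = 0.0272, edgeR 0.449), and Ctnnb1, the beta-catenin gene, had −0.16 (DESeq2 adjusted p = 0.0414, edgeR 0.616). For each of these 5 genes every foamy library lay on one side of every non-foamy library, as for all genes that DESeq2 called. The genes were picked from those calls, so nothing is read from this separation. Over all tested genes the foamy libraries lay entirely above for 5.38% and entirely below for 3.88%.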
